A study of Mus musculus with 3 samples.

Results

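The interleukin-1 family joins cytokines that start and spread inflammation at barrier tissues to the receptors and inhibitors that control them. The genes described here are those whose symbol in the deposited count table equals 1 of 10 names: the ligands Il1a, Il1b, Il18 and Il33, the antagonist Il1rn, and the receptor genes Il1r1, Il1r2, Il1rap, Il1rl1 and Il1rl2. All 10 were found among the 21760 genes of the table, and 8 of them had at least 20 counts in at least 1 library, as 14180 genes of the table did. The tissue was mouse cornea, the transparent outer window of the eye, and each of the 3 groups gave 1 library. In the PNU-282987 group, drops of that compound, which activates α7 nicotinic acetylcholine receptors, were put on the eye 3 times a day. The excision group had its lacrimal gland removed, which takes away a source of tears. The sham group had an operation at the same site that spared the glands. The series asks what α7 receptors do in dry eye disease. The labels give no strain, age or sex, do not say how many corneas were pooled, and do not say whether the PNU-282987 mice had also lost the gland.

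IL-1α and IL-1β signal through the receptor IL-1R1 with the accessory protein IL-1RAP, and the antagonist IL-1Ra, the product of Il1rn, occupies the same receptor without a signal. IL-1R2 binds IL-1 but lacks the intracellular signalling domain and acts as a decoy. IL-18, IL-33 and the IL-36 cytokines use related receptors, and the IL-33 receptor (Il1rl1) and the IL-36 receptor (Il1rl2) share IL-1RAP. In the cornea, IL-1α is stored in epithelial cells and is released on injury.

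A single library per group leaves no measure of variation among animals, so no test was made and each fold compares a pair of libraries. Levels are CPM after TMM scaling (library totals corrected for composition), called scaled CPM below. A fold is the ratio of scaled counts with its 95% exact interval in brackets, and intervals and limits cover counting error only. A gene was called higher or lower where the fold was at least 2 and the interval excluded equal levels. Total gene counts were 39616004 for PNU-282987, 37692972 for excision and 37703843 for sham. The 3 comparisons share libraries and are not independent of each other. In whole-tissue RNA, fewer cells of a type and less RNA per cell cannot be told apart.

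The windows around the annotated start sites of 5 family genes are shown because Il1a, Il1r2, Il1f8 and Il1f9 differed between libraries as described below, and because Il1b, next to Il1a, was nearly silent. They are RefSeq sequences of build GRCm38.p6, with 250 bases before the start and 50 after it, read 5′ to 3′ on the gene's strand. No source used here gives the build behind the counts, and the coordinates belong to the RefSeq table alone. Capitals mark matches, on either strand, to the TATA box (TATAAA), the AP-1 motif (TGANTCA), the interferon-stimulated response element (GAAANNGAA) and the STAT motif (TTCNNNGAA).
Il1a, chr2:129309923-129310222, minus strand: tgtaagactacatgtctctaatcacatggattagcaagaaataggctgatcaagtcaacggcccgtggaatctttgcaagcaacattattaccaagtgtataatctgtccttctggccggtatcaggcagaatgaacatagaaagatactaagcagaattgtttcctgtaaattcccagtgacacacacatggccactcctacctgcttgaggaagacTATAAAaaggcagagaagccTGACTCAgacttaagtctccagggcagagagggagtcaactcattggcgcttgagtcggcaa
Il1b, chr2:129371090-129371389, minus strand: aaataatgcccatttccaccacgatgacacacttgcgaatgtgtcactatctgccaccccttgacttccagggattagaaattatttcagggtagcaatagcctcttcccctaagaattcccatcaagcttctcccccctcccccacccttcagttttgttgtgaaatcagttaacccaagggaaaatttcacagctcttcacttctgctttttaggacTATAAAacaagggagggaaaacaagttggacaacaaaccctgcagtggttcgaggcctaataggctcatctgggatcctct
Il1r2, chr1:40085843-40086142, plus strand: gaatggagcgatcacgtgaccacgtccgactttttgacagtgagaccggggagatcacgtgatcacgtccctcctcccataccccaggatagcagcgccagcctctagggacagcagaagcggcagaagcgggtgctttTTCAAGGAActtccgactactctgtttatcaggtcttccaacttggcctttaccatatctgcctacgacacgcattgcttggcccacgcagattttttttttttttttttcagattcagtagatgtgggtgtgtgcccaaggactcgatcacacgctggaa
Il1f8, chr2:24152922-24153221, plus strand: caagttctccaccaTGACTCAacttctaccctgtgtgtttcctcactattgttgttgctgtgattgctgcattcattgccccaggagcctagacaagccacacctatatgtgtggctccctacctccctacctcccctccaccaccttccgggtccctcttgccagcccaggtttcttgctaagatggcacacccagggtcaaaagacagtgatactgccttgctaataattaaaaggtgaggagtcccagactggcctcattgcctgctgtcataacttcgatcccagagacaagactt
Il1f9, chr2:24186226-24186525, plus strand: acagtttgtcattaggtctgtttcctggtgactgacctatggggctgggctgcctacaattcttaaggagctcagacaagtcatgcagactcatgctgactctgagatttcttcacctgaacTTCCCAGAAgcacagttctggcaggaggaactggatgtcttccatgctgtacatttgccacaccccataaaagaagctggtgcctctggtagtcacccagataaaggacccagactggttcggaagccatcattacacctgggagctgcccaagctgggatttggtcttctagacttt

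A TATA box begins 32 bases before the start of Il1a and 31 bases before that of Il1b, where 13.6% of 32851 RefSeq windows of this length held one anywhere. Il1a also has an AP-1 match beginning 12 bases before its start, and Il1f8 has one at 236 bases, against 7.81% of all windows. Il1r2 holds a STAT motif match at 111 bases and Il1f9 at 128 bases, against 8.30% of all windows. None of the 5 windows matched the interferon-stimulated response element, which 8.56% of all windows held, and no 2 matches overlapped in them. No window was available for Il1f6. The windows of other genes that differed between libraries, among them Il1r1, Il1rn, Il1rap, Il1rl2, Il33, Il1f5 and Il18r1, are not shown, and only some are described here. Those of Il1r1 held no match, and that of Il1rap matched the response element after its start. Il1rn entries held an AP-1 match 141 bases before the start, a TATA box after the start, or no match. A match describes the letters only.

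The family was carried by few genes. Per kilobase of principal transcript (GENCODE M21 lengths), which allows genes to be compared, Il18 stood at 147 scaled CPM in PNU-282987, 161 in excision and 165 in sham. Il1a came next, at 23.9 in PNU-282987, 16.3 in excision and 27.7 in sham. Il1rl2 and Il1rn followed, at 10.04 and 13.6 in PNU-282987, 12.2 and 8.07 in excision, and 7.88 and 7.39 in sham. Il1rl2 thus led Il1rn in excision and in sham, and Il1rn led in PNU-282987. Il1r2 had 3.70 in PNU-282987, 6.85 in excision and 3.27 in sham. The remaining members were below 3 scaled CPM per kilobase in every library, and Il33 and Il1r1 lay next to each other in sham, at 1.55 and 1.49. With lengths taken as the union of all annotated exons, Il18 and Il1a kept the first places in each library, but some lower ranks changed: in excision Il1r2 (5.10) then stood above Il1rn (3.61), and in PNU-282987 Il1r1 (0.959) above Il1rap (0.728). Il1b stood at 0.0380 in PNU-282987, 0.238 in excision and 0.189 in sham per kilobase of principal transcript, far below Il1a.

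**Figure D1:**
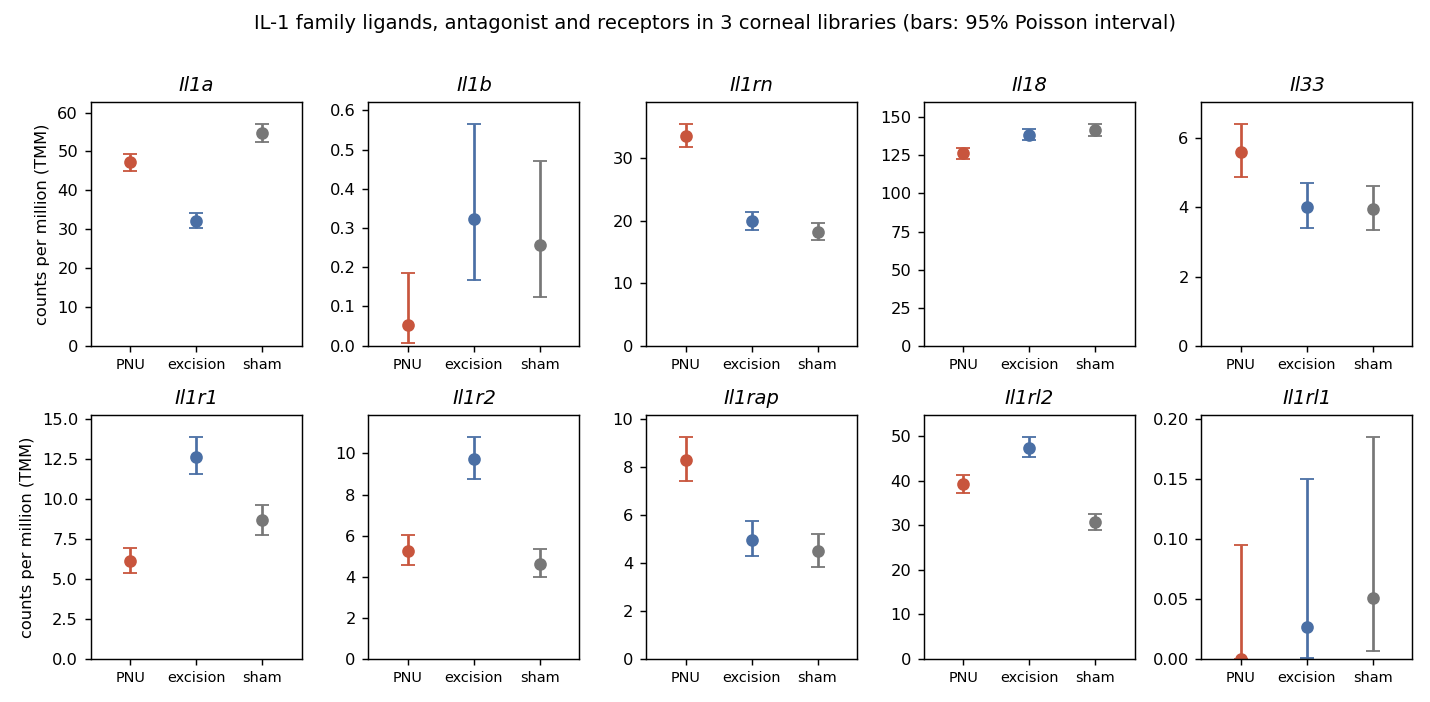
Scaled CPM of the 10 genes (vertical axes, each from 0) in the PNU-282987, excision and sham libraries, with points for the level and bars for the 95% Poisson interval. Il1a was lowest in excision, Il1rn and Il1rap were highest in PNU-282987, and Il1r1 and Il1r2 were highest in excision.

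Among the agonists, Il1a (gene ID 16175), the IL-1 gene of corneal epithelium, was measured at 1834 counts in PNU-282987, 1194 in excision and 2134 in sham. The excision library was the low one. It was 1.70-fold lower than sham (1.58 to 1.83), the PNU-282987 library was 1.47-fold higher than excision (1.36 to 1.58), and PNU-282987 was 1.16-fold lower than sham (1.09 to 1.23). None of these reached 2-fold, and a gene on the opposite strand that overlaps Il1a, Gm14023, had 75 counts in PNU-282987, 71 in excision and 109 in sham. In the ranking of genes by their fold in excision over sham, Il1a was number 1087 from the lowest of 14170.

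Il1b (gene ID 16176), the IL-1 gene of activated myeloid cells, was close to the detection limit. It had 2 counts in PNU-282987, 12 in excision and 10 in sham. Excision and sham were not distinguishable at this depth (1.26-fold, 0.500 to 3.26). The PNU-282987 level was 0.159 times that of excision (0.0173 to 0.716) and 0.201 times that of sham (0.0214 to 0.944), on counts under the minimum of 20. With a prior count of 2 these ratios were 0.276 and 0.336. The opposite-strand gene Il1bos, which overlaps Il1b, had 7 counts in PNU-282987, 15 in excision and 8 in sham, and with the strand setting not given, reads of the 2 genes cannot be told apart.

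Il18 (gene ID 16173), whose product is cut into its active form by caspase-1, differed least across the 3 libraries. It had 4907 counts in PNU-282987, 5150 in excision and 5534 in sham. Excision was 0.979 times sham (0.942 to 1.02), PNU-282987 was 0.911 times excision (0.876 to 0.947), and PNU-282987 was 0.892 times sham (0.858 to 0.927). Scaling to total counts instead put excision at 0.931 times sham and PNU-282987 at 0.844 times sham, outside those intervals.

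Il33 (gene ID 77125), a nuclear alarmin of epithelial and stromal cells, had 218 counts in PNU-282987, 149 in excision and 154 in sham. PNU-282987 was the high library, at 1.40-fold over excision (1.13 to 1.73) and 1.42-fold over sham (1.15 to 1.76). Excision was not distinguishable from sham (1.02-fold, 0.807 to 1.28). Its receptor gene Il1rl1 (gene ID 17082), which marks mast cells and type 2 lymphocytes, had 0 counts in PNU-282987, 1 in excision and 2 in sham. The count of 0 allows up to 0.0773 scaled CPM, and no ratio is given where both libraries had 3 counts or fewer.

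The antagonist gene Il1rn (gene ID 16181) had 1305 counts in PNU-282987, 741 in excision and 714 in sham. The PNU-282987 library stood above the others, by 1.68-fold over excision (1.54 to 1.84) and 1.84-fold over sham (1.68 to 2.02), short of 2-fold. Excision and sham were close (1.09-fold, 0.984 to 1.21). Of 14161 genes ranked by fold in PNU-282987 over sham, Il1rn was number 479 from the top and Il1rap, described below, number 472. In the same PNU-282987 library the summed level of 8 conjunctival and gland markers was 5593 scaled CPM, against 3660 in excision and 2177 in sham. Most of each sum was Krt13, with 179377 counts in PNU-282987, 114747 in excision and 78979 in sham. The mucin gene Muc5ac had 2980 counts in PNU-282987, 11 in excision and 1 in sham, and Gp2 had 3801 in PNU-282987, 4 in excision and 5 in sham. The part of these markers in the Il1rn and Il1rap levels was not tested.

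Of the receptor genes, Il1r1 (gene ID 16177), the signalling receptor for IL-1α and IL-1β, had 237 counts in PNU-282987, 470 in excision and 339 in sham. Excision was 1.46-fold higher than sham (1.27 to 1.68). PNU-282987 was 2.07-fold lower than excision (1.77 to 2.44) and was called lower. It was also 1.42-fold lower than sham (1.20 to 1.69), so that the 3 libraries differed beyond counting error.

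Il1r2 (gene ID 16178), the decoy receptor gene, had 204 counts in PNU-282987, 361 in excision and 181 in sham. Excision was 2.10-fold higher than sham (1.75 to 2.52), the single member called in that comparison and number 538 from the top of 14170 genes. The fold was 1.995 with library totals in place of TMM and 1.95 with totals without the 10 most abundant genes, and the call was lost under both. PNU-282987 was 1.85-fold lower than excision (1.55 to 2.21) and 1.13-fold higher than sham (0.923 to 1.39), which was not distinguishable.

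Il1rap (gene ID 16180), the accessory chain shared by the IL-1, IL-33 and IL-36 receptors, had 321 counts in PNU-282987, 184 in excision and 175 in sham. PNU-282987 was 1.67-fold higher than excision (1.39 to 2.01) and 1.84-fold higher than sham (1.53 to 2.23). Excision and sham were not distinguishable (1.11-fold, 0.894 to 1.37). Il1rl2 (gene ID 107527), the IL-36 receptor chain, had 1524 counts in PNU-282987, 1763 in excision and 1202 in sham. It was 1.54-fold higher in excision than in sham (1.43 to 1.66), 1.21-fold lower in PNU-282987 than in excision (1.13 to 1.30) and 1.28-fold higher in PNU-282987 than in sham (1.18 to 1.38).

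Counted over the 8 members above the minimum, excision over sham gave 1 called higher and 0 called lower, where 4.01% of all genes tested were called higher and 5.48% lower. PNU-282987 over excision gave 0 higher and 1 lower, against 3.90% and 5.62% of all genes. PNU-282987 over sham gave 0 in either direction, against 2.58% and 4.96%. The median log2 ratio of the 8 was 0.14 in excision over sham, 0.17 in PNU-282987 over excision and 0.27 in PNU-282987 over sham, beside medians of -0.0028, 0.0078 and 0.00011 over all genes tested. A single call among 8 genes is no result about the family as a whole.

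**Figure D2:**
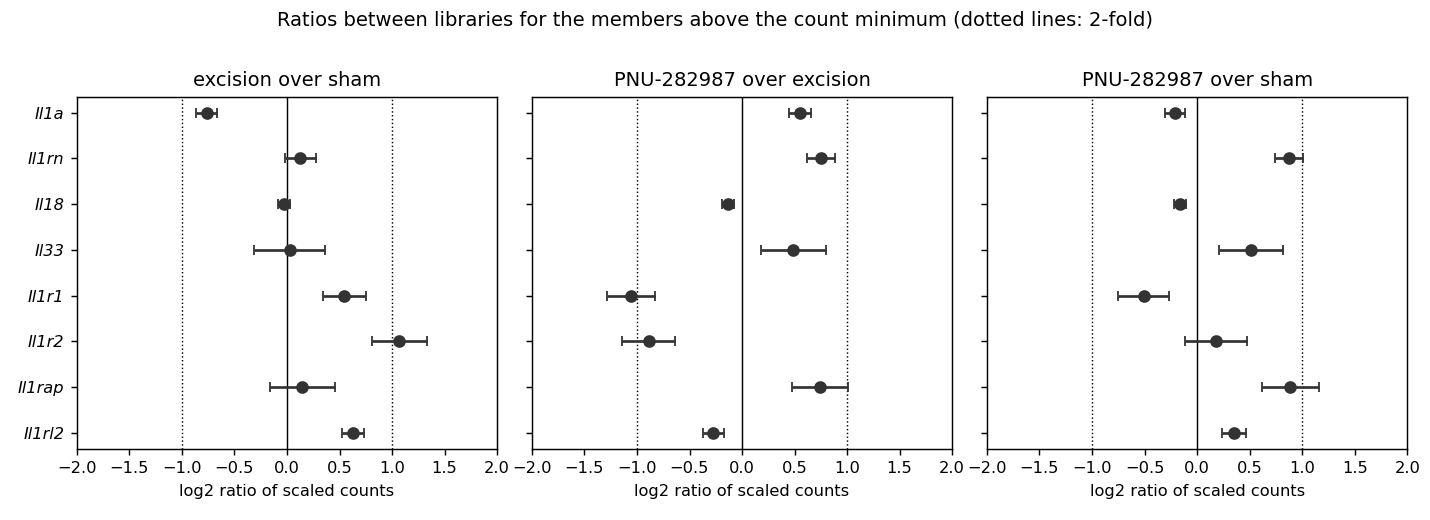
Log2 ratios of scaled counts (horizontal axes) for the 8 members above the count minimum, with 95% exact intervals as bars and dotted lines at 2-fold. Il1r2 passes the line in excision over sham and Il1r1 in PNU-282987 over excision, and in PNU-282987 over sham the largest ratios are those of Il1rap and Il1rn, both below 2-fold.

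Il1r2, Il1r1, Il1rl2, Il1rl1, Il18r1 and Il18rap follow one another on chromosome 1 among the genes of the table. The 4 of them above the count minimum were all higher in excision than in sham with intervals above equal levels, at 2.10-fold for Il1r2, 1.46-fold for Il1r1, 1.54-fold for Il1rl2 and 1.66-fold for Il18r1 (1.38 to 1.99). In PNU-282987 over sham the same genes did not go one way, at 1.13, 0.703, 1.28 and 1.75 times the sham level. Il1rap, on chromosome 16, did not share the difference between excision and sham.

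By the profile over the 3 libraries, the genes most like Il1r2 among 10146 genes with at least 100 counts in each (gene models and pseudogenes left out) were Ifi204, H2-T23 and E2f1, with largest log2 differences of 0.0049, 0.015 and 0.021. Those most like Il1r1 were Adgrf2, Plac8 and Crocc (0.025, 0.025 and 0.028). A profile over 3 libraries holds few values, so the list describes the profile only. Ifi204, an interferon-inducible gene, had 2676 counts in PNU-282987, 4706 in excision and 2369 in sham.

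Pairs of genes that act together or against each other were also compared inside each library, where the scaling of the library cancels. These pairs were chosen after their values were seen. Per count of Il1a there were 0.712 counts of Il1rn in PNU-282987 (0.663 to 0.764), 0.621 in excision (0.566 to 0.680) and 0.335 in sham (0.307 to 0.364). The antagonist share was thus higher in both other libraries than in sham, by 2.13-fold for PNU-282987 (1.90 to 2.38) and 1.85-fold for excision (1.64 to 2.10). The ratio rested mainly on different genes. Against sham, Il1a was 1.70-fold lower in excision. In PNU-282987, Il1rn was 1.84-fold higher and Il1a 1.16-fold lower than in sham.

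Per count of the signalling receptor Il1r1 there were 0.861 counts of the decoy Il1r2 in PNU-282987 (0.714 to 1.04), 0.768 in excision (0.670 to 0.881) and 0.534 in sham (0.446 to 0.639). PNU-282987 was 1.61-fold above sham (1.24 to 2.09) and excision 1.44-fold above sham (1.15 to 1.80), whereas PNU-282987 and excision were not distinguishable (1.12-fold, 0.889 to 1.41). Per count of Il1r1 there were 1.35 counts of the accessory chain gene Il1rap in PNU-282987 (1.15 to 1.60), 0.391 in excision (0.330 to 0.464) and 0.516 in sham (0.430 to 0.620). This was the widest of the differences within pairs, with PNU-282987 3.46-fold above excision (2.72 to 4.39) and 2.62-fold above sham (2.05 to 3.36).

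**Figure D3:**
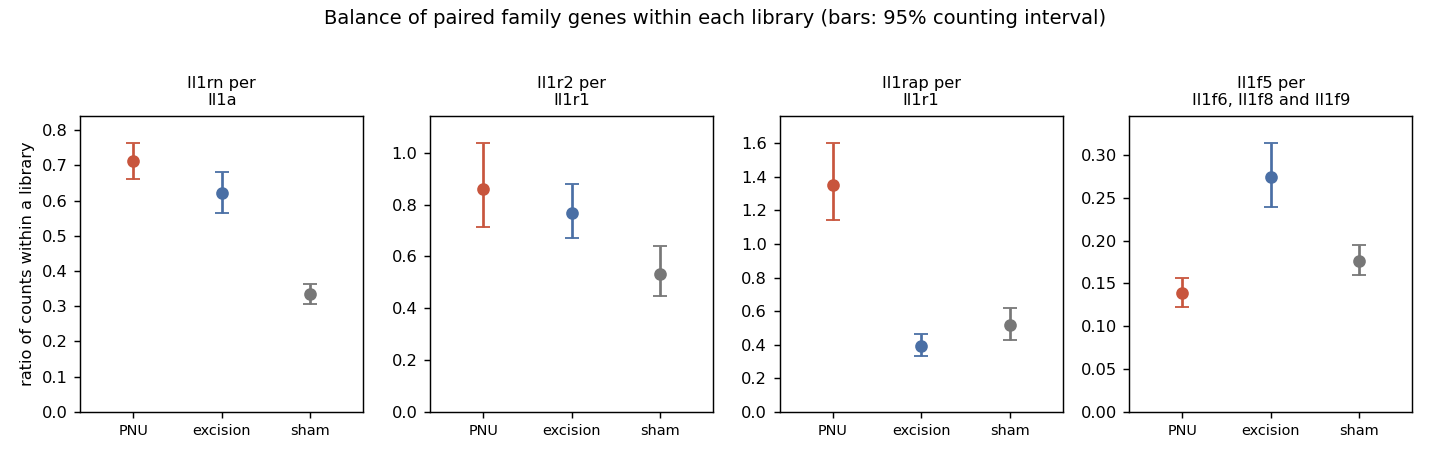
Ratio of the counts of family genes within each library (vertical axes from 0), with 95% counting intervals as bars, in PNU-282987, excision and sham. Antagonist per agonist (Il1rn per Il1a) and decoy per signalling receptor (Il1r2 per Il1r1) are lowest in sham, Il1rap per Il1r1 is highest in PNU-282987, and the IL-36 antagonist per IL-36 agonist is highest in excision.

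Other IL-1 family genes give the setting of Il1rl2 and Il18. Of 11 listed, 10 were in the table and 7 were above the minimum. In excision over sham 0 were called higher and 3 lower, beside 4.01% and 5.48% of all genes, with a median log2 ratio of -0.80. The 3 were the genes of the IL-36 agonists, cytokines of stratified epithelia that signal through Il1rl2. Il1f9, for IL-36γ, had 1708 counts in PNU-282987, 765 in excision and 2183 in sham. It was 2.71-fold lower in excision than in sham (2.50 to 2.95) and 2.13-fold higher in PNU-282987 than in excision (1.96 to 2.33).

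Il1f8, for IL-36β, had 165 counts in PNU-282987, 140 in excision and 402 in sham. Excision was 2.73-fold lower than sham (2.25 to 3.33), and PNU-282987 was 2.42-fold lower than sham (2.02 to 2.92) and not distinguishable from excision (1.13-fold, 0.894 to 1.42). Il1f6, for IL-36α, had 115 counts in PNU-282987, 48 in excision and 129 in sham. Excision was 2.55-fold lower than sham (1.82 to 3.64), and PNU-282987 was 2.29-fold higher than excision (1.62 to 3.28). Excision was thus below both other libraries for Il1f9 and Il1f6 and below sham alone for Il1f8, while Il1rl2, the gene of their receptor chain, was highest in excision.

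Il1f5, the gene of the IL-36 receptor antagonist, had 275 counts in PNU-282987, 261 in excision and 479 in sham, and was 1.74-fold lower in excision than in sham (1.497 to 2.04) and 1.73-fold lower in PNU-282987 than in sham (1.49 to 2.02). Per count of the 3 agonist genes together there were 0.138 counts of Il1f5 in PNU-282987 (0.122 to 0.157), 0.274 in excision (0.239 to 0.314) and 0.176 in sham (0.160 to 0.194). Il1f8, Il1f9, Il1f6, Il1f5, Il1f10 and Il1rn follow one another on chromosome 2 among the genes of the table, and Il1rn was close between excision and sham where the IL-36 genes were lower. Il1f10, for IL-38, had 15 counts in PNU-282987, 5 in excision and 5 in sham.

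**Figure D4:**
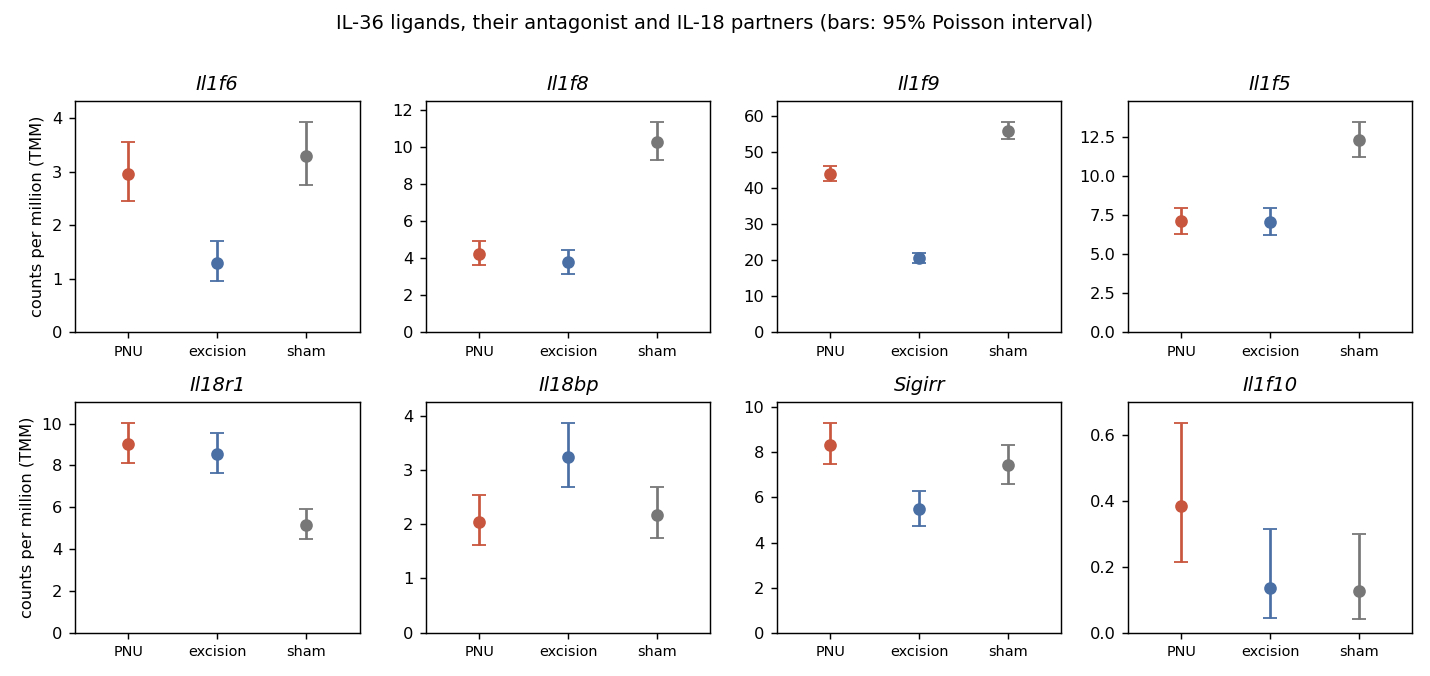
Scaled CPM (vertical axes, each from 0) of the IL-36 agonist genes Il1f6, Il1f8 and Il1f9, the antagonist gene Il1f5, the IL-18 partners Il18r1 and Il18bp, Sigirr and Il1f10, with 95% Poisson intervals as bars. Il1f6 and Il1f9 are lowest in excision, Il1f8 is highest in sham, and Il18bp is highest in excision.

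Of the IL-18 partners, Il18r1, the ligand-binding receptor chain, had 351 counts in PNU-282987, 318 in excision and 202 in sham, and was 1.75-fold higher in PNU-282987 than in sham (1.47 to 2.09). Il18rap, its signalling partner, had 1 count in PNU-282987, 14 in excision and 6 in sham. Il18bp, a secreted inhibitor of IL-18, had 79 counts in PNU-282987, 120 in excision and 85 in sham, and was 1.49-fold higher in excision than in sham (1.12 to 1.98). Its exons overlap those of Numa1 on the other strand, which had 4636 counts in PNU-282987, 4314 in excision and 3740 in sham, so its counts are uncertain. Sigirr, an inhibitory receptor of the family, had 324 counts in PNU-282987, 203 in excision and 290 in sham, and Il1rapl1 had 0 in PNU-282987, 0 in excision and 1 in sham. In PNU-282987 over excision 2 of the 7 genes were called higher (Il1f6 and Il1f9) and 0 lower, with a median of 0.17. Over all genes 3.90% were called higher and 5.62% lower there. In PNU-282987 over sham 0 were higher and 1 lower (Il1f8), with a median of -0.16, beside 2.58% and 4.96% of all genes.

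Of 17 genes for inflammasomes and the proteases that process IL-1 cytokines, 12 were above the minimum, and excision over sham gave 3 called higher and 3 called lower (median 0.12), beside 4.01% and 5.48% of all genes. Casp1, the protease that activates IL-1β and IL-18, had 196 counts in PNU-282987, 99 in excision and 3 in sham. The sham library was nearly empty of it: excision stood 34.7-fold above sham (11.5 to 171) and PNU-282987 65.7-fold above sham (22.2 to 321). Its neighbour Casp4, which encodes the inflammatory caspase known in mice as caspase-11, had 32 counts in PNU-282987, 19 in excision and 3 in sham, and was 6.66-fold higher in excision than in sham (1.96 to 35.2) and 10.7-fold higher in PNU-282987 than in sham (3.36 to 54.7). Both passed the minimum only through libraries in which they were high.

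Nlrp1b, an inflammasome sensor, had 50 counts in PNU-282987, 152 in excision and 47 in sham. It was 3.40-fold higher in excision than in sham (2.44 to 4.83) and 3.18-fold lower in PNU-282987 than in excision (2.30 to 4.47). The called lower genes were the neutrophil serine proteases, which can cut IL-1 family precursors. Elane had 156 counts in PNU-282987, 132 in excision and 602 in sham. Prtn3 had 87 counts in PNU-282987, 67 in excision and 299 in sham. Ctsg, added to the named genes once its values were known, had 31 counts in PNU-282987, 23 in excision and 102 in sham. In excision, Elane was 4.33-fold (3.59 to 5.27), Prtn3 4.24-fold (3.24 to 5.61) and Ctsg 4.22-fold (2.66 to 6.95) lower than in sham, and in PNU-282987 they were 3.84-fold, 3.42-fold and 3.27-fold lower than in sham. In PNU-282987 over excision 0 of the 12 were called higher and 1 lower (median 0.24), beside 3.90% and 5.62% of all genes. In PNU-282987 over sham 2 were higher and 3 lower (median 0.042), beside 2.58% and 4.96% of all genes.

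Some neutrophil markers were also low outside sham, for example Cd177 with 25 counts in PNU-282987, 10 in excision and 70 in sham. Ltf was not, with 1486 counts in PNU-282987, 995 in excision and 920 in sham. S100a9 was low in excision alone, with 617 counts in PNU-282987, 34 in excision and 718 in sham. Csf3r had 9 counts in PNU-282987, 8 in excision and 5 in sham. S100a8, Camp and Ngp reached 20 counts in sham alone, where they were high, so no count of called markers is given. The part of neutrophils in the protease counts was not tested. The 7 neutrophil markers in the table, led by Ltf, summed to 55.8 scaled CPM in PNU-282987, 29.0 in excision and 47.9 in sham, with 0 of them at 0 in any library.

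The next list holds genes on the route from the receptor to the nucleus. All 22 listed genes for adaptors, kinases and NF-kB subunits were above the minimum. In excision over sham 0 were called (median 0.026), and in PNU-282987 over sham 0 (median 0.13). These counts lie near the shares of 2.58% to 5.62% called in each direction over all genes and are no result about the list. In PNU-282987 over excision 1 was called higher, Irak3, which encodes an inhibitory relative of the IRAK kinases, and 0 were lower (median 0.045). Irak3 had 127 counts in PNU-282987, 60 in excision and 84 in sham, and was 2.02-fold higher in PNU-282987 than in excision (1.48 to 2.80).

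Of 22 listed genes known to respond to IL-1, 20 were in the table and 12 above the minimum. In excision over sham 1 was called higher and 3 lower, beside 4.01% and 5.48% of all genes, with a median of -0.53. The neutrophil chemokine genes Cxcl2 and Cxcl1 had 22 and 12 counts in PNU-282987, 19 and 13 in excision, and 225 and 100 in sham. Cxcl2 was 11.3-fold lower in excision (7.04 to 19.0) and 10.2-fold lower in PNU-282987 (6.55 to 16.6) than in sham, and Cxcl1 was 7.31-fold lower in excision (4.09 to 14.2) and 8.29-fold lower in PNU-282987 (4.54 to 16.6) than in sham. Cxcl1 passed the minimum only through sham, where it was high.

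Mmp3, the matrix protease stromelysin-1, went the other way, with 116 counts in PNU-282987, 505 in excision and 97 in sham. It was 5.48-fold higher in excision than in sham (4.40 to 6.88) and 4.55-fold lower in PNU-282987 than in excision (3.72 to 5.62). Ptgs2, for cyclooxygenase-2, had 38 counts in PNU-282987, 17 in excision and 40 in sham, and was called lower in excision than in sham (2.24-fold, 1.24 to 4.21) and higher in PNU-282987 than in excision (2.14-fold, 1.18 to 4.04). Icam1, an adhesion molecule, had 138 counts in PNU-282987, 41 in excision and 65 in sham, and was 3.22-fold higher in PNU-282987 than in excision (2.26 to 4.68) and 2.14-fold higher in PNU-282987 than in sham (1.58 to 2.91). Tnfaip3, a brake on NF-kB, had 717 counts in PNU-282987, 1083 in excision and 1520 in sham, and was 2.11-fold lower in PNU-282987 than in sham (1.93 to 2.31). PNU-282987 over excision thus had 2 called higher and 1 lower (median 0.069), beside 3.90% and 5.62% of all genes. PNU-282987 over sham had 1 higher and 3 lower (median -0.19), beside 2.58% and 4.96% of all genes.

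**Figure D5:**
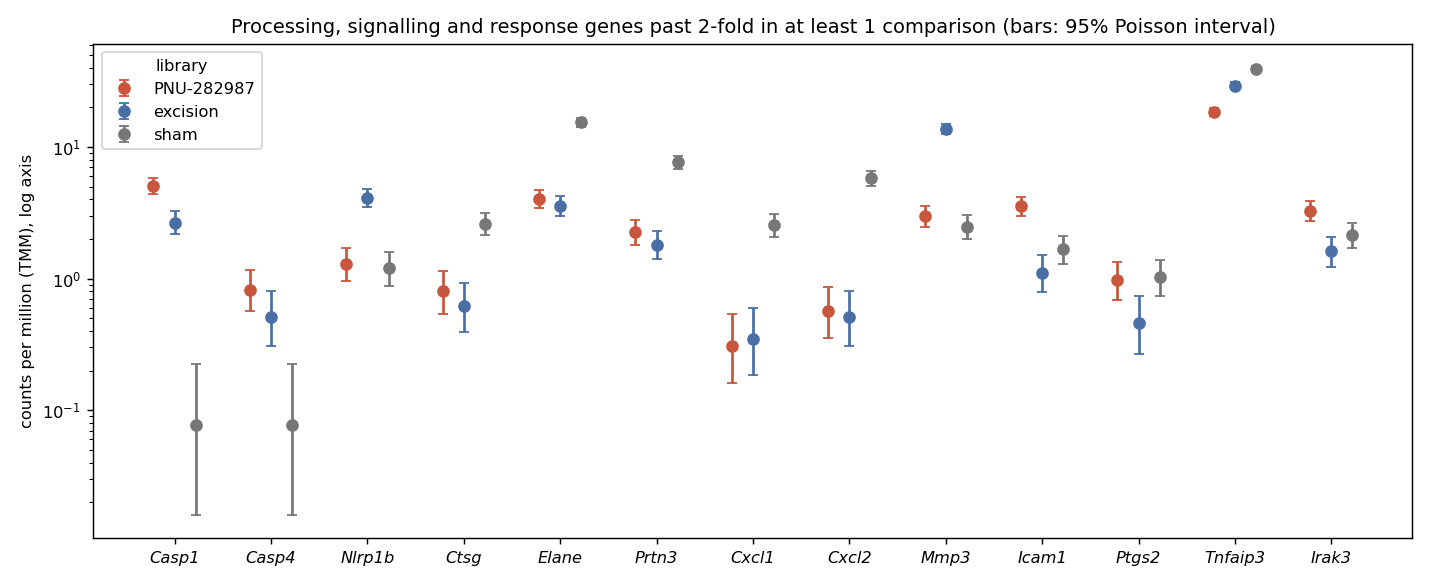
Scaled CPM on a log axis for processing, signalling and response genes called in at least 1 comparison, with 95% Poisson intervals as bars, in PNU-282987, excision and sham. Casp1 and Casp4 are lowest in sham, Elane, Prtn3, Ctsg, Cxcl1 and Cxcl2 are highest in sham, and Mmp3 and Nlrp1b are highest in excision.

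The summed levels of marker lists for cell types of the eye also differed between libraries. The 10 markers of corneal epithelium were all present and summed to 95636 scaled CPM in PNU-282987, 80099 in excision and 84248 in sham. The 9 keratocyte markers summed to 1222 in PNU-282987, 1094 in excision and 1640 in sham. The 6 corneal endothelial markers summed to 404 in PNU-282987, 145 in excision and 686 in sham, and the 9 lens markers to 528 in PNU-282987, 15.8 in excision and 571 in sham. Macrophage and monocyte markers (10 in the table) summed to 29.1 scaled CPM in PNU-282987, 47.1 in excision and 22.2 in sham. Markers of T, NK and innate lymphoid cells (10) summed to 6.21 in PNU-282987, 13.8 in excision and 4.92 in sham, with 1 at 0 in PNU-282987 and 5 at 0 in sham. Most of each sum was Areg, with 210 counts in PNU-282987, 310 in excision and 183 in sham. Other markers differed more between excision and the other libraries. Gzma had 14 counts in PNU-282987, 82 in excision and 3 in sham, and Nkg7 had 5, 25 and 4 in that order. Cd8a had 1 count in PNU-282987, 37 in excision and 0 in sham, and Cd3g had 0, 28 and 0. These 4, of 5 above the count minimum, were called higher in excision than in sham. They were also called lower in PNU-282987 than in excision. Vascular and lymphatic markers (8) summed to 3.14 in PNU-282987, 4.31 in excision and 4.66 in sham, and red blood cell markers (5) to 9.61 in PNU-282987, 17.2 in excision and 71.8 in sham. The 6 mast cell markers summed to 95.5 in PNU-282987, 115 in excision and 104 in sham, nearly all of it Kit, and 3 were at 0 in PNU-282987, 0 in excision and 2 in sham. Il1r1 and Il1r2 were highest in excision, the library with the highest sums of macrophage and lymphocyte markers. The part of those cells in their levels was not tested.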

How the data were processed

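Corneal RNA was measured in 3 libraries, 1 per group, with groups taken from the treatment labels. The authors deposited whole-number read counts per gene in a single table. HTSeq and R 3.2.0 appear in the submitters' processing notes, and the aligner, build, annotation and strand setting were not given in the sources used here. Total counts ran from 37692972 to 39616004, and a count of 0 allows up to 3 counts (0.0768 to 0.0808 scaled CPM).

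TMM factors came from edgeR 4.0.16 (R 4.3.3), and ratios carry 95% exact conditional binomial intervals (SciPy 1.17.1). All genes of the table entered, those reaching 20 counts in 1 or more libraries were kept, and a gene with 3 counts or fewer in both libraries got no ratio. Ratios of genes within a library carry log-normal counting intervals. The script that makes the calls was tested on simulated counts with known ratios, which covers counting error and not variation among animals. No p-values were computed, since there are no replicates.

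The members and the 5 pathway and 11 marker lists were chosen with earlier results of these data known. Of 82 pathway symbols 79 were matched, 4 of them (IL-36 genes) through RefSeq synonyms, and the other 3 were not analysed here. The rule for named genes took all members, all other family genes in the table, the 4 called genes with the largest ratio in each other pathway list and comparison, and the 3 nearest profiles of a called member. Alternatives were other scalings (among them DESeq2 1.42.0 size factors), count minimums, fold limits and a prior count of 2.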

Additional observations from a re-analysis of the deposited data

How the results depend on the processing

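Of 135 ratios of members under other scalings or a prior count of 2, 0 changed a called direction, and 6 moved past their counting interval, all of them Il18 against sham under scalings to totals. Of 120 counts of called genes, 97 stayed within 1.5 times. Called members in excision over sham were 1 with TMM and with DESeq2 size factors, but 0 with total counts, 0 with totals without the 10 most abundant genes, and 0 with totals without lens, endothelial, conjunctival and red blood cell markers, a choice made after seeing the data. In PNU-282987 over excision the processing genes called were 2 in place of 1 with total counts and 2 with that last choice. With no count minimum, called members were 2 in PNU-282987 over excision and 1 in PNU-282987 over sham, because Il1b entered, and other family genes called in PNU-282987 over sham were 2. A 1.5-fold limit called 3, 4 and 2 members in excision over sham, PNU-282987 over excision and PNU-282987 over sham, 5, 4 and 3 other family genes, 3 processing genes in PNU-282987 over excision and 1 signalling gene in PNU-282987 over sham. A 3-fold limit called 0 members in each comparison, 0 other family genes in each, 0 signalling genes in PNU-282987 over excision, and 2 response genes in PNU-282987 over sham. Under the scalings the median of all genes went as far as -0.11 (log2, excision over sham, totals without the 10 most abundant genes), against -0.0028 with TMM. Over all genes in excision over sham, 568 were called higher and 777 lower, against 948 and 1077 with no minimum, 237 and 313 with a minimum of 100 counts, 1166 and 1281 at 1.5-fold and 288 and 422 at 3-fold. No replicate could be left out, and no paired analysis was possible because each group has 1 library. The causes of these shifts were not tested. Depth limits Il1b, Il1rl1, Il1f10 and Il18rap.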

Other observations

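The genes around Casp1 on chromosome 9 were looked at after the Casp1 values were seen. Casp12, another inflammatory caspase gene and the next after Casp4, had 50 counts in PNU-282987, 44 in excision and 26 in sham. Beyond it, Pdgfd, a growth factor gene, had 92 counts in PNU-282987, 13 in excision and 114 in sham. On the other side of Casp1, Gria4 had 1 count in PNU-282987, 0 in excision and 1 in sham, and Msantd4 had 856 counts in PNU-282987, 609 in excision and 897 in sham. Further along on that side, Aasdhppt had 654 counts in PNU-282987, 554 in excision and 598 in sham. Next after Pdgfd on the Casp4 side, Dync2h1 had 427 in PNU-282987, 268 in excision and 305 in sham.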
